A study of Mus musculus with 15 samples.

Results

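The genes described here are the collagens, the laminins and the enzymes that cut, inhibit or crosslink them, in mouse brown adipose tissue. They were chosen by symbol: every collagen chain (Col), laminin chain (Lama, Lamb, Lamc), matrix metalloproteinase (Mmp, without Mmp12), tissue inhibitor (Timp), Adamts protease and lysyl oxidase (Lox), with fibronectin (Fn1), Sparc, periostin (Postn) and tenascin-C (Tnc). The rule found 105 of the 24030 gene symbols in the expression table. It uses symbols only, but it was set with earlier results of these data known. Of these, 82 had enough reads to be tested, and the other 23 never exceeded 0.498 CPM (counts scaled to the same library total) in any library.

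Brown adipose tissue (BAT) burns lipid to make heat, and the heat is made by the mitochondrial protein Ucp1. Its adipocytes sit in a thin basement membrane of type IV collagen, laminin, perlecan and nidogen, and a dense capillary bed with its own basement membrane runs between them. Fibrillar collagens I and III, made mainly by fibroblasts and adipocyte progenitors, fill the space between lobules, and collagen VI forms a microfilament mesh around fat cells. Matrix metalloproteinases and Adamts proteases cut these proteins, Timps inhibit the proteases, and lysyl oxidases crosslink collagen and elastin.

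The study sequenced BAT RNA of mice that lack DJ-1, the protein encoded by Park7, in BAT (KO) and of flox mice without that deletion (WT). Each genotype was housed for 8 weeks either at 29 °C, which is near thermoneutrality for a mouse, or at room temperature (RT), which is a mild cold stimulus. The groups are KO at 29 °C (3 libraries), WT at 29 °C (4 libraries), KO at RT (4 libraries) and WT at RT (4 libraries). The sources used here give neither the promoter that drives the recombinase, nor the age and sex of the mice, nor the degrees of room temperature. The labels do not say that replicates are separate animals, and the p-values below therefore reflect only how much these libraries vary. Park7 itself had 35.2, 25.4 and 34.5 CPM in KO at 29 °C, against 128, 126, 116 and 104 CPM in WT at 29 °C. At RT it had 26.7, 34.1, 25 and 26.9 CPM in KO, against 111, 108, 112 and 109 CPM in WT. The KO and WT groups did not overlap in either housing, and whole tissue also holds other cells, whose part in the remaining Park7 RNA was not tested.

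Library totals ran between 23977448 and 38800967 expected counts, and the matrix genes together took 0.270% to 0.596% of each total. Some libraries stand apart. Skeletal muscle markers summed to 600.3 and 1967 CPM in replicates 2 and 3 of KO at 29 °C and to 1556 CPM in replicate 2 of WT at 29 °C. The other 29 °C libraries had 30.0 CPM (KO replicate 1) and 9.97 to 12.2 CPM (WT), the KO RT libraries 2.46 to 4.92 CPM and the WT RT libraries 1.95 to 14.6 CPM. In a principal component analysis of all genes, replicates 2 and 4 of KO at RT lay apart from replicates 1 and 3, with scores of -24.2 and -19.78 on the third component. Brown adipocyte markers (7 genes) were abundant in every group, with the lowest sums in WT at 29 °C. They summed to 8778 to 11214 CPM in KO at 29 °C and 2865 to 3952 CPM in WT at 29 °C. The sums at RT were 7353 to 13663 CPM in KO and 11341 to 13639 CPM in WT. Ucp1 had means of 7233 CPM in KO at 29 °C, 1019 CPM in WT at 29 °C, 7001 CPM in KO at RT and 8602 CPM in WT at RT. By the calls defined below, 6 of the 7 fell with warm housing in WT, and 4 rose and 1 fell in KO at 29 °C. Of 5 general adipocyte markers, 5 fell with warm housing in WT and 4 rose in KO at 29 °C. Of all genes 32.8% fell with warm housing in WT, and 24.7% rose and 20.0% fell in KO at 29 °C. The part of adipocytes in the matrix results was not tested. Some printed calls of matrix genes were lost without the 3 muscle-bearing libraries, or without replicates 2 and 4 of KO at RT. The value without them is given beside such a call or, for some interactions, after the list of interaction calls.

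The sequences immediately upstream of 5 of these genes are printed first, since these genes carry the main results. Tnc, Col28a1, Timp4 and Adamts1 are the matrix genes with the largest increases at 29 °C in WT by the naming rule, and Col3a1 is the most abundant collagen per length among those that were higher in KO at 29 °C. Each line gives the 250 bases before the annotated start, 5′ to 3′ in the direction of transcription, from RefSeq on GRCm38.p6. Capitals mark the TATA motif TATAAA, the CCAAT motif and the GC-box core GGGCGG on either strand.
Tnc, chr4:64047016-64047265, minus strand: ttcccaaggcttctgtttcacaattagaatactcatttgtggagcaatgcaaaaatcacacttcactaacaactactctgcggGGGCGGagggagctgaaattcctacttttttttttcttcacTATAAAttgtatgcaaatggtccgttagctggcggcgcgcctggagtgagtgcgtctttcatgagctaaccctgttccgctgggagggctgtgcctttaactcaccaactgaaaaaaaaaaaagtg
Col28a1, chr6:8192618-8192867, minus strand: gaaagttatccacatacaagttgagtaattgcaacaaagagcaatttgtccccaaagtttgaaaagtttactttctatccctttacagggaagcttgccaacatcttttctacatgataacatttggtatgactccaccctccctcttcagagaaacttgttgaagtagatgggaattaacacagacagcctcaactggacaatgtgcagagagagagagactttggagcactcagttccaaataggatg
Timp4, chr6:115252206-115252455, minus strand: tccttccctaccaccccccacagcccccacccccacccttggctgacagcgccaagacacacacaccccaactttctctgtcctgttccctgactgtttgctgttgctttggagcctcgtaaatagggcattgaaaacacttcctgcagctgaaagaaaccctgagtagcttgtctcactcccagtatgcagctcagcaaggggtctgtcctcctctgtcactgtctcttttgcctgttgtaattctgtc
Adamts1, chr16:85803114-85803363, minus strand: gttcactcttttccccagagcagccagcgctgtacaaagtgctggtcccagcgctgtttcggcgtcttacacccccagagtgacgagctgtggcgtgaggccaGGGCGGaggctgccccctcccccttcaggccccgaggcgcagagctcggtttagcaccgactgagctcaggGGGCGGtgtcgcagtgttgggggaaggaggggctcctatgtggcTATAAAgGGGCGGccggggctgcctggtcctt
Col3a1, chr1:45311288-45311537, plus strand: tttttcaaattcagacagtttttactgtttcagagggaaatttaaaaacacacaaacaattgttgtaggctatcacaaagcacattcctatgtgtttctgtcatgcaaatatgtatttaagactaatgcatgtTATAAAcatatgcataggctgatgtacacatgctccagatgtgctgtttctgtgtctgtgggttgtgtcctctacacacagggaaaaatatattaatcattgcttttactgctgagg

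The Adamts1 window has TATAAA 32 bases before the start and 3 copies of GGGCGG. The Tnc window has TATAAA 126 bases and GGGCGG 167 bases before the start, and the Col3a1 window has TATAAA 117 bases before it. The windows of Timp4 and Col28a1 hold none of the 3 motifs, which says only that these letters are not in these windows. RefSeq windows were found for 71 of the 105 matrix genes, 78 windows in all. TATAAA was in 16.7% of those windows, against 12.4% of the 32851 windows of all genes. CCAAT was in 25.6% against 33.8%, and GGGCGG in 55.1% against 32.7%. All 5 are protein-coding genes. On GRCm38, Tnc spans chromosome 4, 63959785 to 64047015, Col28a1 spans chromosome 6, 7997808 to 8192617, and Timp4 spans chromosome 6, 115241892 to 115252205. Adamts1 lies on chromosome 16, 85793827 to 85803113, and Col3a1 on chromosome 1, 45311538 to 45349706.

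Per length of exon, Sparc was the most abundant matrix transcript. Sparc, a secreted protein that binds collagen, averaged 193 CPM per kb in KO at 29 °C, 257 in WT at 29 °C, 175 in KO at RT and 186 in WT at RT. The partner chains of the basement membrane network followed, Col4a1 at 77.4 and Col4a2 at 52.5 CPM per kb over all libraries. Col3a1 came next at 27.3, Timp3 at 23.7 and Col6a1 at 16.0 CPM per kb. Col1a1 ranked below Lamb2 and Postn, at 10.1 CPM per kb.

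Many of these genes changed with housing in both genotypes, 35 differed between genotypes at 29 °C and 1 did at RT. In all that follows a log2 fold change is given with its standard error (SE), and p-values are from edgeR's quasi-likelihood test, adjusted by the Benjamini-Hochberg method over all 15083 genes tested. A gene is called where that adjusted p is under 0.05, and only called genes are said to rise or fall. In KO against WT at 29 °C, 35 of the 82 tested matrix genes were called (42.7%), and 44.7% of all genes were. Of these 35, 12 rose (14.6%) and 23 fell (28%), while over all genes 24.7% rose and 20.0% fell. The median log2 fold change was -0.17 over the matrix genes and 0.04 over all genes. The share of matrix genes called is near that of all genes. Without WT replicate 3 at 29 °C the median was 0.01, so its direction rests on that library.

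At RT, KO against WT gave 1 called matrix gene, Adamts1, which fell. That is 1.22% of the 82, and over all genes 0.239% were called, with 0.053% higher and 0.186% lower. Unadjusted p was under 0.05 for 6 of the 82, and DESeq2 also called 1. The median log2 fold change was -0.08 over the matrix genes and 0.01 over all genes.

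In WT, 29 °C against RT gave 51 called matrix genes (62.2%), 41 higher (50.0%) and 10 lower (12.2%). Over all genes 68.8% were called, 35.9% higher and 32.8% lower. The median log2 fold change was 0.50 over the matrix genes and 0.06 over all genes. In KO, 29 °C against RT gave 41 called (50.0%), 33 higher (40.2%) and 8 lower (9.76%). Over all genes 46.0% were called in KO, 24.3% higher and 21.7% lower. The median in KO was 0.51 over the matrix genes and 0.04 over all genes. Without the 3 muscle-bearing libraries, KO is left with 1 library at 29 °C, whose spread is assumed to equal that of the other groups, and 22 genes were called, 16 higher and 6 lower, with a median of 0.34.

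Of the 41 genes that rose at 29 °C in WT, 20 also rose in KO and 21 were not called there. Of the 10 that fell in WT, 5 fell in KO, 2 rose and 3 were not called. Another 11 genes rose and 3 fell in KO without a call in WT. The difference itself was tested as the interaction of genotype and housing, which is the KO effect at 29 °C minus the KO effect at RT. It was called for 27 of the 82 (32.9%), positive in 12 (14.6%) and negative in 15 (18.3%). Over all genes it was called for 28.3%, positive in 16.0% and negative in 12.3%. Without the 3 muscle-bearing libraries it was called for 16, and without replicates 2 and 4 of KO at RT for 17.

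**Figure D1:**
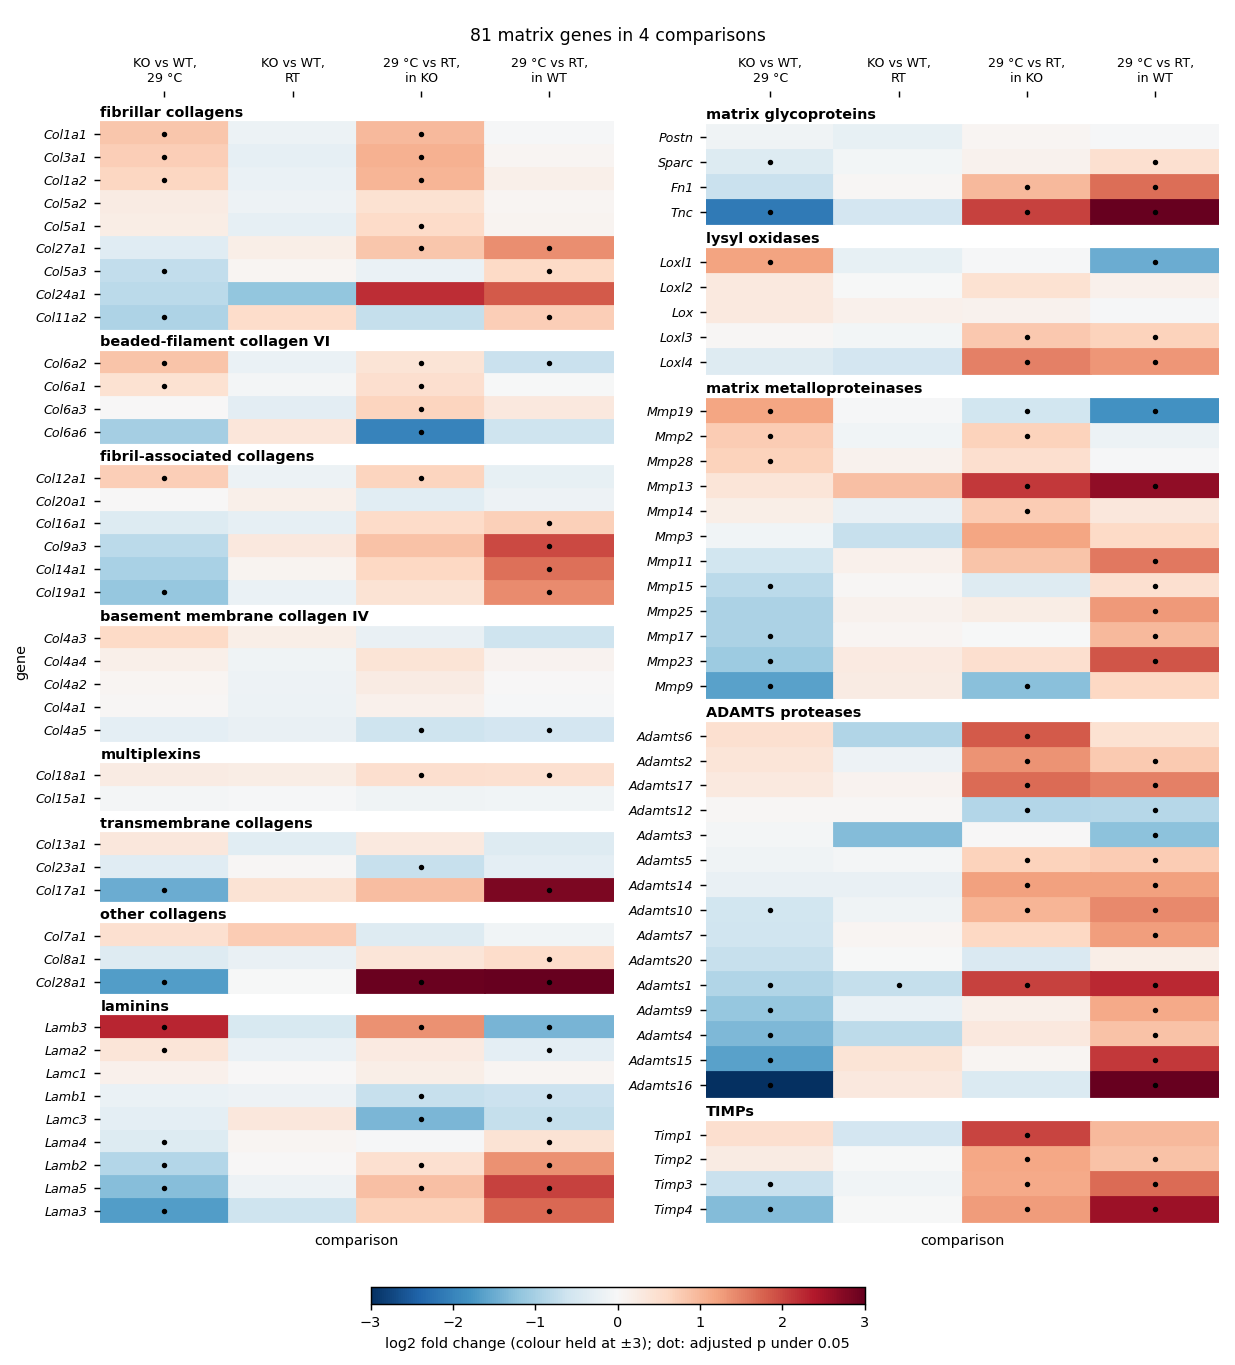
Log2 fold change (colour, held at ±3) of 81 of the 82 tested matrix genes, in rows by family, in 4 comparisons: KO against WT at 29 °C, KO against WT at RT, 29 °C against RT in KO and 29 °C against RT in WT. Dots mark adjusted p under 0.05: 35, 1, 40 and 50 genes in the 4 columns.

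**Figure D2:**
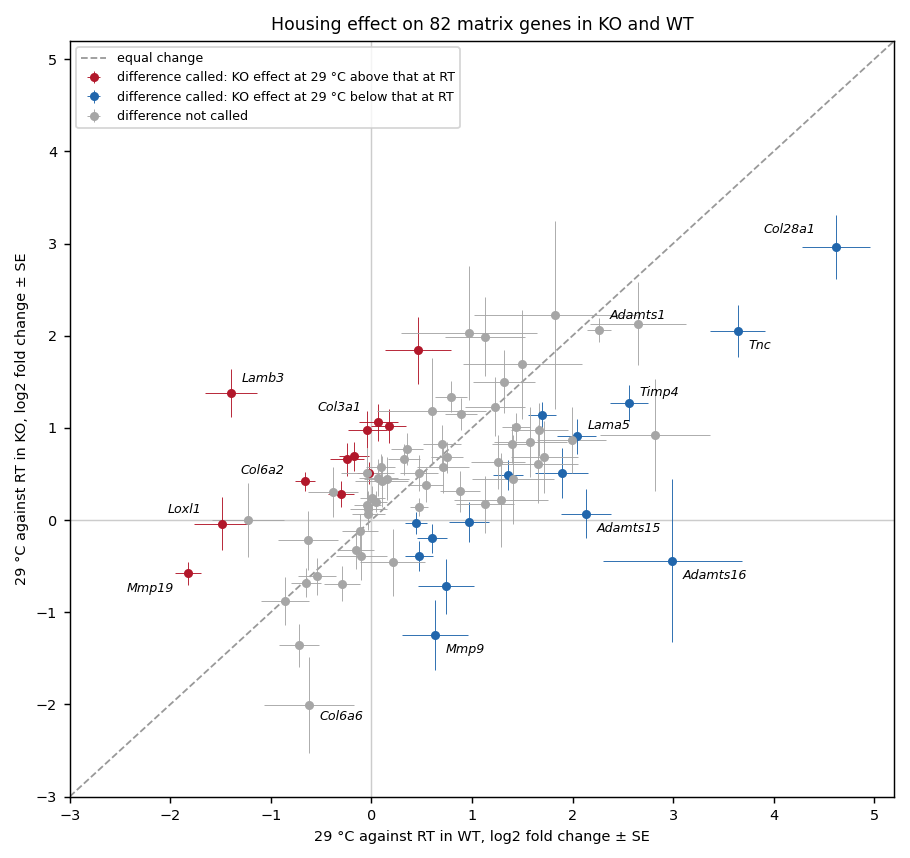
Log2 fold change at 29 °C against RT in KO (vertical axis) and in WT (horizontal axis) of the 82 tested matrix genes, with SE bars and a dashed line of equal change. Red points are the 12 genes whose KO effect at 29 °C was above that at RT and blue points the 15 where it was below, both by the interaction test.

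Among the structural glycoproteins, the largest change was that of Tnc, which encodes tenascin-C, a large multi-armed protein that appears in matrix under remodelling. It had 11.1, 5.90 and 14.3 CPM in KO at 29 °C, against 39.2, 45.1, 44.7 and 53.9 CPM in WT at 29 °C. At RT it had 1.98, 2.36, 2.58 and 3.13 CPM in KO, against 2.40, 2.92, 4.24 and 5.11 CPM in WT. All 29 °C libraries were above all RT libraries, and at 29 °C every KO library was below every WT library. At 29 °C the KO level was 4.37-fold lower (log2 fold change -2.13 ± 0.28, adjusted p = 3.4e-05). Warm housing raised Tnc 12.5-fold in WT (3.64 ± 0.27, adjusted p = 3.5e-08) and 4.15-fold in KO (2.05 ± 0.28, adjusted p = 6.0e-05). The interaction was -1.59 ± 0.39 (adjusted p = 0.00783).

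Sparc moved the same way but less. It had 774, 650.1 and 767 CPM in KO at 29 °C, against 1018, 1018, 899 and 963 CPM in WT at 29 °C. Its RT levels were 654, 617, 663 and 719 CPM in KO, against 643, 678, 727 and 775 CPM in WT. The WT 29 °C libraries are the high ones, and the other 3 groups overlap. Sparc fell in KO at 29 °C (-0.42 ± 0.10, adjusted p = 0.00269), a difference of -0.38 without the muscle-bearing libraries (adjusted p = 0.0684). It rose at 29 °C in WT by 0.47 ± 0.09 (adjusted p = 0.00024), and its housing change in KO was 0.14 (adjusted p = 0.252). The interaction of Sparc was not called (-0.33, adjusted p = 0.0769).

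Fn1, the cell-adhesive fibronectin, had 14.5, 14.5 and 19.7 CPM in KO at 29 °C, against 19.5, 28.7, 31.8 and 22.1 CPM in WT at 29 °C. It had 4.31, 8.90, 12 and 7.64 CPM in KO at RT, against 8.69, 5.37, 10.8 and 7.32 CPM in WT at RT. The 29 °C libraries all lay above the RT libraries. It rose at 29 °C in WT (1.67 ± 0.28, adjusted p = 1.0e-04) and in KO (0.98 ± 0.29, adjusted p = 0.0139), and the KO call was lost without KO replicate 3 at 29 °C (0.82, adjusted p = 0.0675), without the muscle-bearing libraries (0.74, adjusted p = 0.229) and without replicates 2 and 4 of KO at RT (0.98, adjusted p = 0.074). The genotype difference at 29 °C was -0.66 ± 0.29 (adjusted p = 0.0808), and DESeq2 called it (adjusted p = 0.0385). Postn, periostin, had 101, 126 and 132 CPM in KO at 29 °C, against 106, 119, 180.1 and 122 CPM in WT at 29 °C, and was called in none of the 5 comparisons.

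Fibrillar collagens form the tensile fibres of connective tissue. Of 9 tested, 3 rose (33.3%) and 2 fell (22.2%) in KO at 29 °C, against 24.7% and 20.0% of all genes. With warm housing 5 rose in KO (55.6%, against 24.3% of all genes) and 3 rose in WT (33.3%, against 35.9%). The chains of types I and III were the ones that rose with the knockout. Col1a1, the main chain of type I collagen, had 102, 111 and 99.2 CPM in KO at 29 °C, against 39.2, 62.5, 86.2 and 44.8 CPM in WT at 29 °C. At RT its levels were 53.0, 60.0, 54.0 and 44.7 CPM in KO, against 67.6, 50.4, 61.9 and 58.7 CPM in WT. KO at 29 °C is the only group that stands clear of the other 3, which overlap. Col1a1 was 1.79-fold higher in KO at 29 °C (0.84 ± 0.20, adjusted p = 0.0039). It rose with warm housing in KO (0.98 ± 0.20, adjusted p = 0.00136), with a change of -0.04 in WT (adjusted p = 0.875) and an interaction of 1.01 ± 0.28 (adjusted p = 0.0146). Without the 3 muscle-bearing libraries the genotype difference was 0.77 (adjusted p = 0.107), the housing change in KO 0.86 (adjusted p = 0.0632) and the interaction 0.95 (adjusted p = 0.118).

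Col1a2, the partner chain of type I collagen, had 150, 162 and 137 CPM in KO at 29 °C, against 65.4, 94.0, 140.1 and 85.8 CPM in WT at 29 °C, where replicate 3 reached the KO range. It rose by 0.64 ± 0.18 (adjusted p = 0.0108), or by 0.55 without the muscle-bearing libraries (adjusted p = 0.194). Col3a1, the chain of type III collagen in reticular fibres, had 503, 397 and 352 CPM in KO at 29 °C, against 172, 237, 383 and 217 CPM in WT at 29 °C. At RT it had 179, 210.4, 213 and 201 CPM in KO, against 269, 210.2, 247 and 236 CPM in WT. WT replicate 3 at 29 °C is again the high library of its group and overlaps the KO libraries. Col3a1 rose by 0.73 ± 0.20 in KO at 29 °C (adjusted p = 0.00889), a call lost without KO replicate 1 (0.57, adjusted p = 0.0565). In a fit of the 29 °C libraries alone neither Col3a1 (0.69, adjusted p = 0.0595) nor Col1a2 (0.60, adjusted p = 0.0563) was called. The housing change of Col3a1 was 1.06 ± 0.20 in KO (adjusted p = 0.00069) and 0.07 in WT (adjusted p = 0.762). The interaction was 0.99 ± 0.28 (adjusted p = 0.0154), and 0.84 without KO replicate 1 at 29 °C (adjusted p = 0.0507).

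Other fibrillar chains fell or were not called in KO at 29 °C. Col5a3, a minor chain of type V collagen, had 58.4, 43.0 and 56.4 CPM in KO at 29 °C, against 87.7, 88.1, 103 and 71.4 CPM in WT at 29 °C. It fell (-0.73 ± 0.16, adjusted p = 0.00193), although not by a called amount without the muscle-bearing libraries (-0.65, adjusted p = 0.0724). Col11a2, a chain of type XI collagen, fell (-0.92 ± 0.30, adjusted p = 0.0222), and lost its call without replicate 1 or 2 of KO at 29 °C (adjusted p = 0.105 and 0.103) or replicate 3 of WT at 29 °C (adjusted p = 0.0597). Col5a1 and Col5a2, which help nucleate type I fibrils, differed between KO and WT at 29 °C by 0.22 (adjusted p = 0.257) and 0.24 (adjusted p = 0.35). Col27a1, whose product forms thin fibrils, rose with warm housing in WT (1.40 ± 0.20, adjusted p = 1.8e-05) and in KO (0.83 ± 0.21, adjusted p = 0.00484), or by 0.63 in KO without the muscle-bearing libraries (adjusted p = 0.0811). All fibrillar chains together summed to 1016, 882 and 903 CPM in KO at 29 °C, against 642, 745, 956 and 611 CPM in WT at 29 °C. The sums at RT were 491 to 565 CPM in KO and 504 to 615 CPM in WT.

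Fibroblast and progenitor markers, listed here because these cells make collagens I and III, were measured beside them. Of 13 markers 2 rose and 2 fell in KO at 29 °C (30.8% called, against 44.7% of all genes), and none was at 0 in any group. Their summed level was 1436 to 1924 CPM in KO at 29 °C, 1267 to 1856 CPM in WT at 29 °C, 786 to 1001 CPM in KO at RT and 797 to 1051 CPM in WT at RT. Pdgfra (0.71, adjusted p = 0.01) and Serping1 (adjusted p = 0.00061) rose, and Cd34 (-0.72, adjusted p = 0.00369) and Pi16 (-1.80, adjusted p = 0.0269) fell. The part of these cells in the collagen result was not tested. In whole-tissue RNA, fewer cells of a type and less RNA per cell cannot be told apart.

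In KO at 29 °C, 2 of 4 collagen VI genes rose and 0 fell, and of 6 fibril-associated collagens 1 rose and 1 fell. The shares called were 50.0% and 33.3%, against 44.7% of all genes. Col6a2, a chain of the collagen VI mesh around fat cells, had 80.9, 94.9 and 93.9 CPM in KO at 29 °C, against 43.4, 56.5, 52.9 and 44.8 CPM in WT at 29 °C. It had 64.6, 70.9, 65.0 and 68.5 CPM in KO at RT, against 86.0, 71.8, 78.0 and 75.4 CPM in WT at RT. The order of the groups reversed between housings: the KO libraries were all above the WT libraries at 29 °C and all below them at RT, where the difference was not called (-0.21, adjusted p = 0.428). Col6a2 was 1.82-fold higher in KO at 29 °C (0.86 ± 0.10, adjusted p = 8.2e-06). With warm housing it rose in KO (0.42 ± 0.10, adjusted p = 0.00336) and fell in WT (-0.66 ± 0.10, adjusted p = 1.5e-05), with an interaction of 1.07 ± 0.14 (adjusted p = 7.2e-05). The rise in KO was 0.19 without the muscle-bearing libraries (adjusted p = 0.326).

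Col6a1, the adjacent collagen VI gene on chromosome 10, had 79.2, 97.8 and 92.6 CPM in KO at 29 °C, against 58.1, 73.3, 77.1 and 52.9 CPM in WT at 29 °C. It rose by 0.46 ± 0.12 (adjusted p = 0.00687), or by 0.26 without the muscle-bearing libraries (adjusted p = 0.298). In a fit of the 29 °C libraries alone the Col6a1 difference was 0.42 (adjusted p = 0.0551). Col6a3, the third common chain, differed by 0.02 (adjusted p = 0.94). Col12a1, which sits on the surface of type I fibrils, had 23.6, 20.4 and 22.2 CPM in KO at 29 °C, against 14, 17.0, 12.3 and 9.81 CPM in WT at 29 °C. It rose by 0.73 ± 0.18 (adjusted p = 0.00399). The fibril-associated Col14a1 and Col9a3 rose with warm housing in WT by 1.66 ± 0.39 (adjusted p = 0.00156) and 1.99 ± 0.34 (adjusted p = 8.4e-05).

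Col28a1, a collagen with von Willebrand factor domains known from basement membranes around peripheral nerve Schwann cells, had the largest housing change among the 82 tested genes in each genotype. It had 7.37, 4.40 and 10.1 CPM in KO at 29 °C, against 26.7, 24.3, 18.2 and 24.7 CPM in WT at 29 °C. At RT it had 0.991, 1.10, 0.645 and 1.02 CPM in KO, against 0.827, 0.988, 1.64 and 0.346 CPM in WT. The 29 °C libraries of both genotypes lie far above all RT libraries, and the KO ones below the WT ones. Warm housing raised it 24.5-fold in WT (4.62 ± 0.34, adjusted p = 2.5e-08) and 7.78-fold in KO (2.96 ± 0.35, adjusted p = 1.4e-05). At 29 °C it was 3.21-fold lower in KO (-1.68 ± 0.31, adjusted p = 0.00052), with an interaction of -1.66 ± 0.49 (adjusted p = 0.0207) that was not called without replicates 2 and 4 of KO at RT (-1.46, adjusted p = 0.117). Schwann and nerve markers summed to 67.0 to 84.1 CPM in KO at 29 °C, 43.7 to 76.0 CPM in WT at 29 °C, 43.6 to 57.1 CPM in KO at RT and 61.6 to 92.4 CPM in WT at RT. Of these 6 markers 1 rose in KO at 29 °C (16.7% called, against 44.7% of all genes), and with warm housing 1 fell in WT and 2 rose in KO. The part of these cells in the Col28a1 change was not tested.

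The transmembrane collagens were low. Col23a1 had 2.69, 2.33 and 2.43 CPM in KO at 29 °C, against 3.19, 3.88, 4.35 and 4.67 CPM in KO at RT, and fell with warm housing in KO (-0.69 ± 0.19, adjusted p = 0.00842). That call was lost without the muscle-bearing libraries (-0.66, adjusted p = 0.115) and without replicates 2 and 4 of KO at RT (-0.61, adjusted p = 0.0586). In WT it had 3.95, 3.75, 2.70 and 2.38 CPM at 29 °C, against 3.85, 4.17, 4.11 and 3.51 CPM at RT, and was not called (-0.29, adjusted p = 0.16). Col17a1, a hemidesmosome collagen of epithelia, fell in KO at 29 °C (-1.48 ± 0.49, adjusted p = 0.021) at levels of at most 0.173 CPM in KO and 0.52 CPM in WT. It was not called without KO replicate 2 (-1.22, adjusted p = 0.0969) or without the muscle-bearing libraries (-1.36, adjusted p = 0.191).

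**Figure D3:**
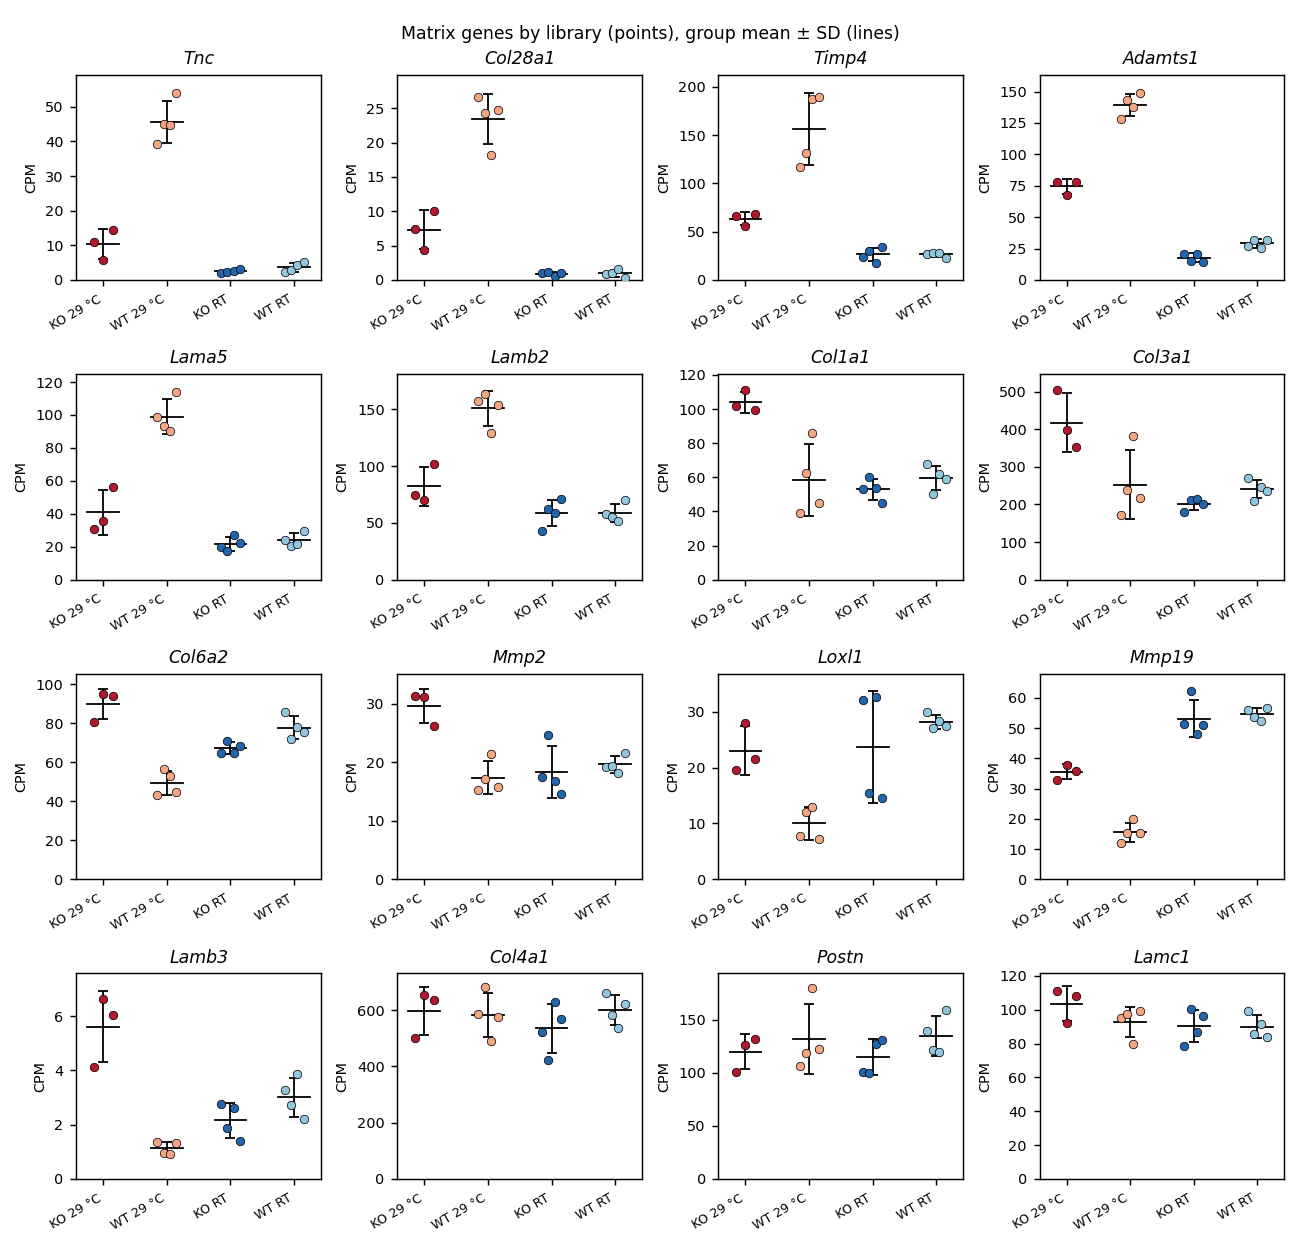
CPM of 16 matrix genes in each library (points) with the group mean ± SD (lines), for KO at 29 °C, WT at 29 °C, KO at RT and WT at RT. Tnc, Col28a1, Timp4, Adamts1, Lama5 and Lamb2 are highest in WT at 29 °C; Col1a1, Col3a1, Col6a2 and Mmp2 are highest on average in KO at 29 °C; Loxl1 and Mmp19 are lowest in WT at 29 °C; Col4a1, Postn and Lamc1 overlap in all groups.

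Collagen IV forms the network of the basement membrane. Col4a1 had 500.5, 655 and 636 CPM in KO at 29 °C, against 585, 682, 490.5 and 574 CPM in WT at 29 °C. At RT it had 522, 421, 629 and 567 CPM in KO, against 659.9, 583, 536 and 623 CPM in WT. The groups overlap throughout, and the genotype difference at 29 °C was 0.03 ± 0.14 (adjusted p = 0.861). Col4a2, which starts head to head with Col4a1, had 305, 407 and 406 CPM in KO at 29 °C, against 361, 399.5, 288 and 371 CPM in WT at 29 °C, with a difference of 0.07 (adjusted p = 0.678). Of 5 collagen IV genes tested 0 were called in KO against WT at 29 °C by edgeR, and 44.7% of all genes were. Col4a5 fell with warm housing in WT (-0.54, adjusted p = 0.017) and in KO (-0.61, adjusted p = 0.0212), but the WT call was lost without WT replicate 4 at RT (-0.42, adjusted p = 0.0683) and the KO call without KO replicate 4 at RT (adjusted p = 0.0657) or without replicate 1 or 3 of KO at 29 °C (adjusted p = 0.0729 and 0.0744). The KO change of Col4a5 was -0.80 without the muscle-bearing libraries (adjusted p = 0.0808) and -0.42 without replicates 2 and 4 of KO at RT (adjusted p = 0.188). Col15a1, a multiplexin that links basement membrane to fibrils, had 40.2, 35.8 and 52.7 CPM in KO at 29 °C, against 37.4, 46.4, 52.0 and 41.9 CPM in WT at 29 °C, and was called in none of the 5 comparisons.

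Laminins are trimers of an alpha, a beta and a gamma chain, and the alpha chain sets which receptors they bind. Of 10 tested chains 2 rose and 4 fell in KO at 29 °C (60.0% called, against 44.7% of all genes). Lama5, the alpha chain of mature vascular and epithelial basement membranes, had 30.5, 35.8 and 56.1 CPM in KO at 29 °C, against 99.0, 93.0, 90.0 and 114 CPM in WT at 29 °C. It had 19.6, 17.6, 27.4 and 22.1 CPM in KO at RT, against 24.2, 20.3, 21.7 and 29.8 CPM in WT at RT. The KO libraries at 29 °C lie between the RT libraries and the WT libraries at 29 °C. Lama5 was 2.43-fold lower in KO at 29 °C (-1.28 ± 0.20, adjusted p = 0.00013). Warm housing raised it 4.12-fold in WT (2.04 ± 0.19, adjusted p = 1.6e-07) and 1.88-fold in KO (0.91 ± 0.19, adjusted p = 0.00153), or by 0.41 in KO without the muscle-bearing libraries (adjusted p = 0.195).

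Lamb2, a beta chain that pairs with these alpha chains, had 74.8, 70.1 and 102 CPM in KO at 29 °C, against 157, 164, 129 and 154 CPM in WT at 29 °C. At RT it had 42.7, 62.2, 59.1 and 71.0 CPM in KO, against 57.7, 55.6, 51.3 and 70.1 CPM in WT. The WT 29 °C libraries are above all others. Lamb2 fell in KO at 29 °C (-0.87 ± 0.17, adjusted p = 0.00055), rose at 29 °C in WT (1.36 ± 0.15, adjusted p = 1.0e-06) and had an interaction of -0.88 (adjusted p = 0.00858), or -0.67 without replicates 2 and 4 of KO at RT (adjusted p = 0.054). Its rise in KO (0.49, adjusted p = 0.0226) was lost without replicate 3 of KO at 29 °C (0.30, adjusted p = 0.167), without the muscle-bearing libraries (0.27, adjusted p = 0.394), or without replicate 1 or 3 of KO at RT (adjusted p = 0.0653 and 0.0657). Lama4, the other endothelial alpha chain, had 82.7, 95.4 and 104 CPM in KO at 29 °C, against 102, 130.4, 133 and 134 CPM in WT at 29 °C. The difference was -0.41 ± 0.12 (adjusted p = 0.0125), and -0.32 without KO replicate 1 (adjusted p = 0.0758).

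Lamb1, the alternative beta chain, fell with warm housing in both genotypes. It had 63.8, 44.9 and 70.8 CPM in KO at 29 °C, against 81.6, 100.3, 111 and 91.2 CPM in KO at RT (-0.68 ± 0.16, adjusted p = 0.00314). In WT it had 57.6, 65.4, 66.0 and 85.2 CPM at 29 °C, against 87.9, 119, 115 and 109.8 CPM at RT (-0.65 ± 0.15, adjusted p = 0.00113). The 29 °C libraries lie below the RT libraries in each genotype. Lamc1, the common gamma chain, had 111, 92 and 108 CPM in KO at 29 °C, against 95.2, 97.3, 80.0 and 99.3 CPM in WT at 29 °C, and was called in none of the 5 comparisons. Lamc3, another gamma chain, had 6.04, 9.54 and 6.90 CPM in KO at 29 °C, against 19.9, 21.3, 15 and 20.7 CPM in KO at RT, and fell with warm housing in KO (-1.36 ± 0.23, adjusted p = 2.0e-04) and in WT (-0.72 ± 0.20, adjusted p = 0.00533).

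The beta chain of epithelial laminin, Lamb3, showed the largest knockout rise of a matrix gene at 29 °C. It had 4.14, 6.65 and 6.03 CPM in KO at 29 °C, against 1.35, 0.963, 0.934 and 1.33 CPM in WT at 29 °C. At RT it had 2.76, 1.86, 2.62 and 1.38 CPM in KO, against 3.27, 2.71, 3.86 and 2.21 CPM in WT. KO was above WT in every library at 29 °C, and the RT groups overlap. Lamb3 was 4.88-fold higher in KO at 29 °C (2.29 ± 0.27, adjusted p = 7.1e-06), and fell 2.63-fold with warm housing in WT (-1.40 ± 0.26, adjusted p = 0.00015). It rose with warm housing in KO (1.38 ± 0.26, adjusted p = 0.00045), although by 0.86 without the muscle-bearing libraries (adjusted p = 0.0876). The interaction was 2.77 ± 0.36 (adjusted p = 7.2e-05). Lama3, the alpha chain that pairs with Lamb3 in skin, moved the other way. It had 0.380, 0.864 and 0.936 CPM in KO at 29 °C, against 2.74, 1.93, 2.04 and 2.42 CPM in WT at 29 °C (-1.67 ± 0.36, adjusted p = 0.00145). At RT it had 0.172, 0.632, 0.483 and 0.488 CPM in KO, against 0.745, 0.945, 0.504 and 0.563 CPM in WT. Lama2, the alpha chain of muscle and Schwann cells, rose by 0.39 ± 0.14 in KO at 29 °C (adjusted p = 0.0298), and lost its call without replicate 3 of KO at RT (0.33, adjusted p = 0.0648), replicate 4 of WT at 29 °C (0.30, adjusted p = 0.0793), or replicate 1 (0.42, adjusted p = 0.0544) or 2 (0.35, adjusted p = 0.0964) of KO at 29 °C. Without the muscle-bearing libraries the Lama2 difference was 0.33 (adjusted p = 0.278).

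Endothelial markers were lower in KO at 29 °C and higher at 29 °C in WT, as were Tnc, Sparc, Lama5, Lamb2, Timp3, Timp4 and Adamts1. Lamb1, Lamc3, Lamb3 and Mmp19 fell at 29 °C in WT, and Col4a1, Col4a2, Lamc1 and Col15a1 were called in neither comparison. Of 14 endothelial markers 14 fell in KO at 29 °C, 14 rose with warm housing in WT and 8 rose in KO. Over all genes the shares were 20.0%, 35.9% and 24.3%. Their summed level was 813, 904 and 1137 CPM in KO at 29 °C, against 2276, 2268, 1894 and 2601 CPM in WT at 29 °C. At RT the sums were 632 to 823 CPM in KO and 753 to 948 CPM in WT. None of the 14 was at 0 in any group. Pericyte and smooth muscle markers (12 genes) had 2 higher and 4 lower in KO at 29 °C, with sums of 606 to 746 CPM in KO at 29 °C, 682 to 924 CPM in WT at 29 °C, 519 to 677 CPM in KO at RT and 614 to 751 CPM in WT at RT. Of the pericyte and smooth muscle markers 50.0% were called in KO against WT at 29 °C, against 44.7% of all genes. The part of endothelial, pericyte and smooth muscle cells in the matrix results was not tested.

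Of the 4 tissue inhibitors of metalloproteinases, 4 rose with warm housing in KO and 3 in WT, and 2 fell in KO at 29 °C. Over all genes 24.3% rose with warm housing in KO and 35.9% in WT, and 20.0% fell in KO at 29 °C. Timp4, an inhibitor abundant in fat and heart, had 66.6, 55.9 and 68 CPM in KO at 29 °C, against 117, 132, 187 and 189.8 CPM in WT at 29 °C. At RT it had 23.7, 30.2, 18 and 33.7 CPM in KO, against 27.2, 27.8, 28.3 and 23.0 CPM in WT. The RT groups overlap, and at 29 °C no KO library reached the lowest WT library. Timp4 was 2.46-fold lower in KO at 29 °C (-1.30 ± 0.20, adjusted p = 0.00013). Warm housing raised it 5.88-fold in WT (2.56 ± 0.19, adjusted p = 2.5e-08) and 2.40-fold in KO (1.27 ± 0.20, adjusted p = 0.00013), with an interaction of -1.29 ± 0.27 (adjusted p = 0.00298).

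Timp3, which binds to the matrix and also inhibits Adam and Adamts proteases, had 203, 224 and 232 CPM in KO at 29 °C, against 284, 331, 311 and 476 CPM in WT at 29 °C. It had 92.3, 99.0, 96.2 and 111 CPM in KO at RT, against 108, 116, 93.4 and 114 CPM in WT at RT. Again the RT groups overlap and the 29 °C groups do not. It fell in KO at 29 °C (-0.67 ± 0.14, adjusted p = 0.00138), and its interaction of -0.56 (adjusted p = 0.0417) was lost when any of 7 libraries was left out (adjusted p between 0.052 and 0.107), without the muscle-bearing libraries (-0.77, adjusted p = 0.0738) and without replicates 2 and 4 of KO at RT (-0.48, adjusted p = 0.143). Of its exon bases 21.3% overlap Syn3 on the other strand, whose mean was 1.42 CPM (no source used here says whether counting used strand). Timp1 was low, with 2.57, 1.24 and 2.77 CPM in KO at 29 °C, against 1.42, 2.23, 1.83 and 0.686 CPM in WT at 29 °C. Its levels at RT were 0.388, 0.379, 1.09 and 0.284 CPM in KO, against 1.16, 0.0429, 1.72 and 0.216 CPM in WT. Its rise with warm housing in KO (2.03 ± 0.73, adjusted p = 0.0365) was lost when any of 5 libraries was left out (1.82 to 1.90, adjusted p between 0.0846 and 0.1). It was also lost without the muscle-bearing libraries (2.17, adjusted p = 0.117) and without replicates 2 and 4 of KO at RT (1.56, adjusted p = 0.222). Timp2 rose with warm housing in KO (1.15 ± 0.17, adjusted p = 6.8e-05) and in WT (0.89 ± 0.16, adjusted p = 0.00013).

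Adamts proteases include several that cut versican and aggrecan. Of 15 tested, 11 rose and 2 fell at 29 °C in WT (86.7% called, against 68.8% of all genes), and 7 rose and 1 fell in KO (53.3%, against 46.0%). In KO against WT at 29 °C 6 fell and 0 rose (40.0% called, against 44.7% of all genes). The sums of the Adamts genes were 185, 178 and 206 CPM in KO at 29 °C, against 289, 304, 320.2 and 374 CPM in WT at 29 °C. Adamts1, a versican-cutting protease, had 77.9, 67.8 and 77.7 CPM in KO at 29 °C, against 128, 143, 138 and 149 CPM in WT at 29 °C. It had 20.8, 15.3, 20.5 and 14.7 CPM in KO at RT, against 27.4, 32.0, 25.1 and 32.1 CPM in WT at RT. KO was below WT in every library of each housing, and every 29 °C library was above every RT library. Adamts1 was 1.87-fold lower in KO at 29 °C (-0.91 ± 0.13, adjusted p = 4.4e-05) and 1.64-fold lower in KO at RT (-0.71 ± 0.12, adjusted p = 0.0217). Warm housing raised it 4.79-fold in WT (2.26 ± 0.12, adjusted p = 5.7e-10) and 4.18-fold in KO (2.06 ± 0.13, adjusted p = 8.0e-08), and the interaction was not called (-0.20, adjusted p = 0.435).

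The RT call of Adamts1 depends on single libraries. It was lost without replicate 2 (-0.66, adjusted p = 0.0955) or 4 (-0.66, adjusted p = 0.0974) of WT at RT, and without replicate 2 (-0.64, adjusted p = 0.0994) or 4 (-0.63, adjusted p = 0.118) of KO at RT. Without both KO replicates 2 and 4 at RT the difference was -0.50 (adjusted p = 0.501), and without the muscle-bearing libraries it was -0.72 (adjusted p = 0.0708). With a replicate block it was -0.71 (adjusted p = 0.0569), and in a fit of the RT libraries alone -0.72 (adjusted p = 0.0761). The direction was the same in each.

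Adamts15, another versican-cutting protease, had 3.19, 2.10 and 2.60 CPM in KO at 29 °C, against 8.60, 5.85, 11.8 and 6.74 CPM in WT at 29 °C. At RT it had 1.81, 2.28, 2.98 and 2.97 CPM in KO, against 1.86, 1.25, 2.31 and 2.08 CPM in WT. Only the WT 29 °C libraries are high. It rose with warm housing in WT (2.13 ± 0.25, adjusted p = 1.4e-06), with a change of 0.07 in KO (adjusted p = 0.843) and an interaction of -2.06 ± 0.37 (adjusted p = 0.00075). Adamts4, an aggrecanase, had 1.64, 1.28 and 1.91 CPM in KO at 29 °C, against 3.12, 4.35, 4.29 and 4.68 CPM in WT at 29 °C (-1.35 ± 0.22, adjusted p = 0.00013). Adamts9 fell in KO at 29 °C (-1.16 ± 0.32, adjusted p = 0.00944), with 28.1, 31.7 and 43.3 CPM in KO, against 54.5, 52.5, 57.5 and 142 CPM in WT, where replicate 4 is far above its group. In a fit of the 29 °C libraries alone the Adamts9 difference was -1.20 (adjusted p = 0.0603). Adamts10, which binds fibrillin, fell (-0.57 ± 0.15, adjusted p = 0.00505), and Adamts16 fell at levels of 0.0475 to 0.15 CPM in KO, against 0.161 to 1.39 CPM in WT.

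Adamts2, Adamts12 and Adamts6 were not called between genotypes in either housing. Adamts2, which removes the amino-terminal propeptide of procollagens I and III, had 14, 14.6 and 13.9 CPM in KO at 29 °C, against 4.83, 4.93, 6.97 and 5.69 CPM in KO at RT (1.34 ± 0.17, adjusted p = 1.6e-05). In WT it had 8.71, 12.4, 12.6 and 9.44 CPM at 29 °C, against 6.04, 5.33, 7.98 and 5.67 CPM at RT (0.79 ± 0.16, adjusted p = 0.00036). Its KO to WT difference at 29 °C was 0.39 (adjusted p = 0.0636). Adamts12 fell with warm housing, with 1.47, 1.24 and 1.28 CPM in KO at 29 °C, against 2.03, 2.23, 2.50 and 3.09 CPM in KO at RT (-0.88 ± 0.26, adjusted p = 0.011). This KO call was lost without the muscle-bearing libraries (-0.82, adjusted p = 0.14) and without replicates 2 and 4 of KO at RT (-0.76, adjusted p = 0.0668). In WT Adamts12 had 0.902, 1.59, 1.73 and 1.01 CPM at 29 °C, against 1.86, 2.28, 2.35 and 3.07 CPM at RT (-0.86 ± 0.24, adjusted p = 0.0043). Adamts6 had 2.66, 2.52 and 2.08 CPM in KO at 29 °C, against 0.474, 0.422, 0.886 and 0.894 CPM in KO at RT (1.84 ± 0.36, adjusted p = 0.00066). In WT Adamts6 was not called, with 1.39, 2.13, 2.11 and 1.33 CPM at 29 °C, against 0.827, 2.19, 1.30 and 0.736 CPM at RT, where replicate 2 is the high library. Its interaction (1.38, adjusted p = 0.0444) was lost when any of 8 libraries was left out, and was 0.98 without WT replicate 2 at RT (adjusted p = 0.117), 1.56 without the muscle-bearing libraries (adjusted p = 0.104) and 1.36 without replicates 2 and 4 of KO at RT (adjusted p = 0.0962).

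Matrix metalloproteinases went both ways: of 12 tested, 3 rose and 4 fell in KO at 29 °C. Mmp2, the constitutive gelatinase of fibroblasts, had 31.3, 31.2 and 26.2 CPM in KO at 29 °C, against 15.2, 17.1, 21.4 and 15.7 CPM in WT at 29 °C. At RT it had 17.4, 24.7, 16.7 and 14.5 CPM in KO, against 19.2, 19.4, 18.2 and 21.6 CPM in WT. KO at 29 °C is above the other 3 groups, which overlap. Mmp2 was 1.70-fold higher in KO at 29 °C (0.77 ± 0.16, adjusted p = 0.00087). It rose with warm housing in KO (0.69 ± 0.16, adjusted p = 0.00196), changed by -0.17 in WT (adjusted p = 0.299), and had an interaction of 0.86 (adjusted p = 0.00695), or 0.87 without the muscle-bearing libraries (adjusted p = 0.0515). Mmp14, the membrane protease that activates Mmp2, had 22.7, 21.2 and 28 CPM in KO at 29 °C, against 19.8, 20.1, 27.3 and 16.1 CPM in WT at 29 °C. Its RT levels were 12.3, 15.9, 15.4 and 12.7 CPM in KO, against 17.0, 12.5, 18.5 and 17.5 CPM in WT. It rose with warm housing in KO (0.77 ± 0.17, adjusted p = 0.00161) and was not called in WT (0.35, adjusted p = 0.0608). The KO call was lost without the muscle-bearing libraries (0.62, adjusted p = 0.0797), and the interaction of Mmp14 was 0.42 (adjusted p = 0.189).

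Mmp19, a secreted protease of basement membrane proteins, had 32.9, 37.9 and 35.8 CPM in KO at 29 °C, against 11.9, 15.2, 19.8 and 15.2 CPM in WT at 29 °C. At RT it had 51.2, 62.2, 48.1 and 51.0 CPM in KO, against 56.0, 53.8, 52.3 and 56.8 CPM in WT. The KO 29 °C libraries lie between the RT libraries and the WT 29 °C libraries. Mmp19 was 2.28-fold higher in KO at 29 °C (1.19 ± 0.13, adjusted p = 4.5e-06). It fell with warm housing 3.52-fold in WT (-1.82 ± 0.13, adjusted p = 4.5e-09) and 1.50-fold in KO (-0.58 ± 0.13, adjusted p = 0.00204), with an interaction of 1.24 ± 0.18 (adjusted p = 0.00015). Of its exon bases 22.3% overlap Tmem198b on the opposite strand, which averaged 9.05 CPM.

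Mmp9, the inducible gelatinase of leukocytes, had 0.618, 0.902 and 1.04 CPM in KO at 29 °C, against 1.87, 2.42, 4.11 and 2.06 CPM in WT at 29 °C. It had 1.42, 2.45, 1.09 and 3.09 CPM in KO at RT, against 1.70, 1.63, 1.13 and 2.29 CPM in WT at RT. KO at 29 °C is below every other library. Mmp9 fell in KO at 29 °C (-1.63 ± 0.38, adjusted p = 0.00269). Its fall with warm housing in KO (-1.25, adjusted p = 0.0145) was lost without KO replicate 4 at RT (-0.96, adjusted p = 0.0542) or KO replicate 1 at 29 °C (-1.05, adjusted p = 0.0696). It was -1.77 without the muscle-bearing libraries (adjusted p = 0.0561) and -0.57 without replicates 2 and 4 of KO at RT (adjusted p = 0.276). The interaction was -1.88 (adjusted p = 0.0118), or -1.20 without replicates 2 and 4 of KO at RT (adjusted p = 0.0951). Of 12 macrophage markers 4 rose and 0 fell in KO at 29 °C (33.3% called, against 44.7% of all genes). Their sums were 257 to 393 CPM in KO at 29 °C, 184 to 255 CPM in WT at 29 °C, 68.4 to 119 CPM in KO at RT and 70.4 to 105 CPM in WT at RT. Of 12 lymphocyte markers 11 rose and 0 fell in KO at 29 °C (91.7% called). Their sums were 28.1 to 40.7 CPM in KO at 29 °C, 7.75 to 10.4 CPM in WT at 29 °C, 4.07 to 8.39 CPM in KO at RT and 3.99 to 5.11 CPM in WT at RT. Neutrophil markers were not listed, and the part of leukocytes in the Mmp9 result was not tested.

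The membrane-anchored proteases Mmp15 and Mmp17 fell in KO at 29 °C (-0.82 ± 0.16, adjusted p = 0.00056, and -0.95 ± 0.21, adjusted p = 0.00193), and so did Mmp23 (-1.09 ± 0.27, adjusted p = 0.00404). Mmp15 had 16.5, 16.4 and 15.6 CPM in KO, against 38.2, 29.5, 21.8 and 24.6 CPM in WT. Without the muscle-bearing libraries the Mmp23 difference was -0.82 (adjusted p = 0.161). The collagenase Mmp13 rose with warm housing in WT (2.65 ± 0.48, adjusted p = 0.00012) and in KO (2.13 ± 0.45, adjusted p = 0.00118), at levels of 1.01 to 1.62 CPM in KO at 29 °C, 0.657 to 1.39 CPM in WT at 29 °C and at most 0.488 CPM at RT. The call of Mmp28 at 29 °C (0.69, adjusted p = 0.0499) was lost when any of 10 libraries was left out (adjusted p between 0.0586 and 0.19) and without replicates 2 and 4 of KO at RT (0.70, adjusted p = 0.0551).

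Of 5 crosslinking enzymes only Loxl1 was called between genotypes, at 29 °C (20.0%, against 44.7% of all genes). Loxl1, which crosslinks elastin, had 19.6, 28 and 21.5 CPM in KO at 29 °C, against 7.73, 12.1, 12.9 and 7.30 CPM in WT at 29 °C. At RT it had 32.1, 15.5, 32.6 and 14.5 CPM in KO, against 29.9, 27.0, 28.4 and 27.4 CPM in WT; replicates 2 and 4 of KO at RT are the low ones. Loxl1 was 2.29-fold higher in KO at 29 °C (1.2 ± 0.29, adjusted p = 0.00431). It fell 2.81-fold with warm housing in WT (-1.49 ± 0.27, adjusted p = 0.00026), with a change of -0.04 in KO (adjusted p = 0.915) and an interaction of 1.45 ± 0.39 (adjusted p = 0.0145). Without the muscle-bearing libraries the genotype difference at 29 °C was 1.0 (adjusted p = 0.12) and the interaction 1.25 (adjusted p = 0.124). Lox, the main collagen crosslinker, had 19.4, 24.5 and 25.5 CPM in KO at 29 °C, against 13.1, 17.8, 24.9 and 19.7 CPM in WT at 29 °C, and was called in none of the 5 comparisons. Loxl3 and Loxl4 rose with warm housing in KO (0.82 and 1.50) and in WT (0.70 and 1.32), and the Loxl3 call in KO was lost without the muscle-bearing libraries (adjusted p = 0.0507).

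**Figure D4:**
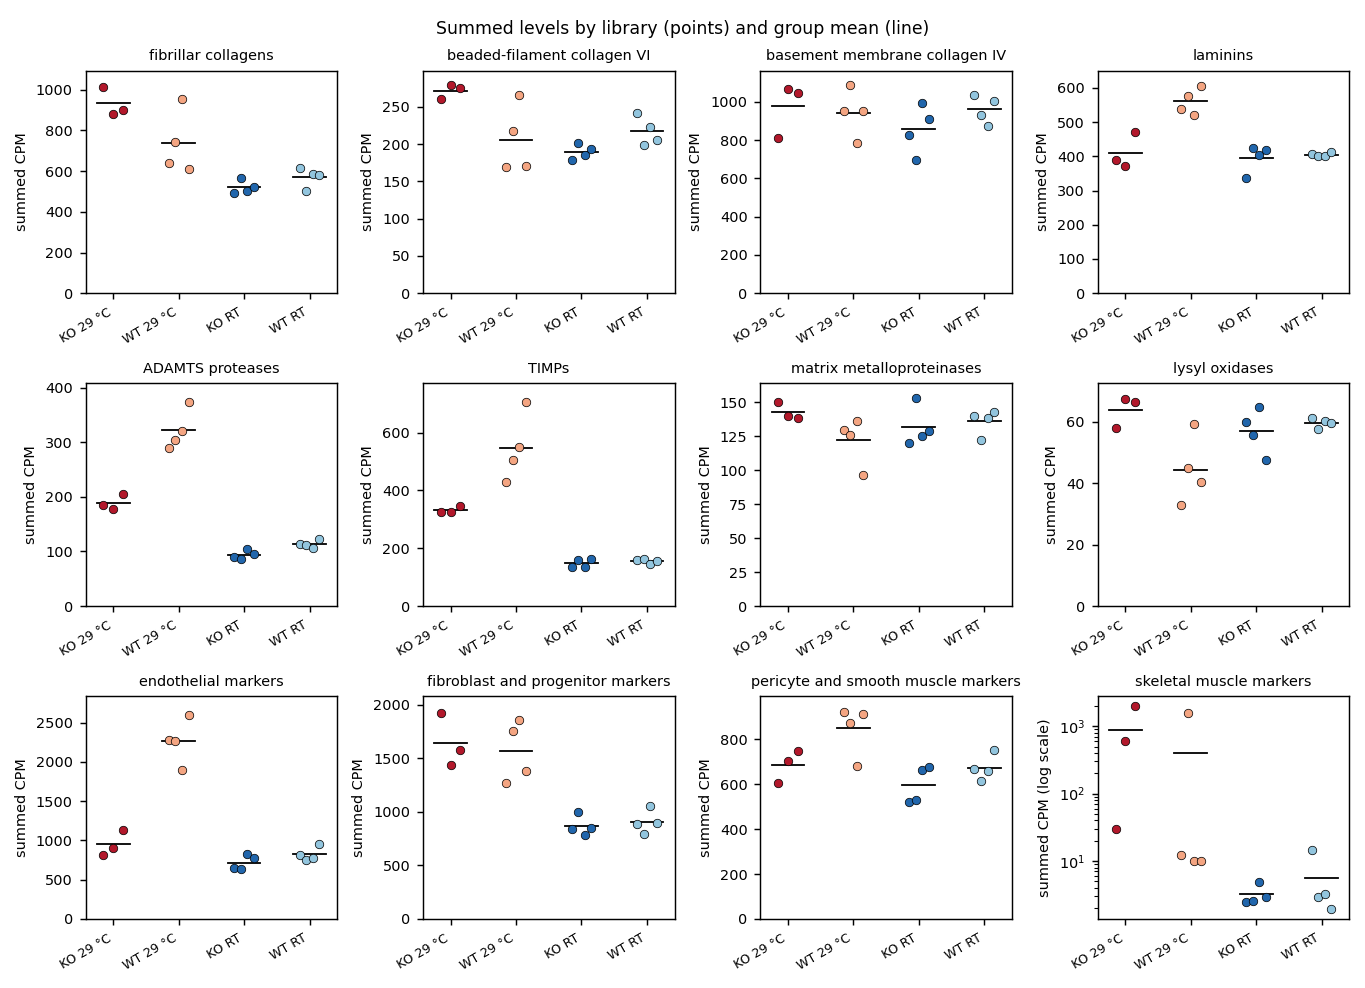
Summed CPM per library of 12 gene lists, matrix families and cell type markers, for KO at 29 °C, WT at 29 °C, KO at RT and WT at RT; the skeletal muscle panel has a log axis. Endothelial markers are at 813 to 1137 CPM in KO at 29 °C and 1894 to 2601 CPM in WT at 29 °C, and muscle markers are high in 3 libraries.

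Genes outside the symbol rule that build or sense the matrix were counted from 4 lists, 101 of 107 genes tested. In KO against WT at 29 °C 10 rose and 33 fell, with a median of -0.33, and their 42.6% called was near the 44.7% of all genes. With warm housing 52 rose and 6 fell in KO (57.4% called, against 46.0% of all genes), and 65 rose and 13 fell in WT (77.2%, against 68.8%). At RT edgeR called 0 between genotypes, the unadjusted p was under 0.05 for 7 of them, and with DESeq2 2 were called. Among 20 collagen synthesis and processing genes, 0 rose and 7 fell in KO at 29 °C. They include Serpinh1, the collagen chaperone, with 328, 365 and 375 CPM in KO at 29 °C, against 441, 482, 421 and 472 CPM in WT at 29 °C (-0.35 ± 0.10, adjusted p = 0.00985). Bmp1, which removes the carboxy-terminal propeptide of fibrillar collagens, had 21.6, 19.5 and 28.4 CPM in KO at 29 °C, against 39.2, 39.8, 43.8 and 29.4 CPM in WT at 29 °C (-0.72 ± 0.16, adjusted p = 0.00167). Its relative Tll1 fell 3.71-fold (-1.89 ± 0.31, adjusted p = 1.5e-04). Of the 20 genes 13 were not called, and the 35.0% called was below the 44.7% of all genes. Whether the falls relate to the higher Col1a1 and Col3a1 transcripts was not tested.

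Among 40 proteoglycans and other basement membrane or elastic fibre genes, 3 rose and 15 fell in KO at 29 °C. Of all genes 24.7% rose and 20.0% fell, so that 44.7% were called. Hspg2, which encodes perlecan of basement membranes, had 204, 252 and 300.5 CPM in KO at 29 °C, against 544, 539.8, 491 and 541 CPM in WT at 29 °C. At RT it had 179.9, 184, 239 and 201 CPM in KO, against 222, 236, 214 and 251 CPM in WT. It fell 2.10-fold in KO at 29 °C (-1.07 ± 0.13, adjusted p = 8.8e-06). Agrn, agrin, had 57.6, 66.6 and 61.3 CPM in KO at 29 °C, against 149, 123, 136 and 108 CPM in WT at 29 °C (-1.06 ± 0.14, adjusted p = 2.0e-05). Prelp, a small leucine-rich proteoglycan that anchors collagen to basement membranes, rose by 0.62 ± 0.17 (adjusted p = 0.00866).

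Of 21 matrix receptors 4 rose and 6 fell in KO at 29 °C, where 24.7% of all genes rose and 20.0% fell. Dag1, the dystroglycan receptor for laminin, had 179, 182 and 157 CPM in KO at 29 °C, against 112, 106, 81.5 and 89.7 CPM in WT at 29 °C, and 347 to 362 CPM in KO at RT, against 351 to 410.3 CPM in WT at RT. It rose by 0.83 ± 0.11 in KO at 29 °C (adjusted p = 1.6e-05) and fell with warm housing in WT (-1.95 ± 0.10, adjusted p = 4.2e-10). Ddr1, a collagen-activated kinase, rose 3.78-fold in KO at 29 °C (1.92 ± 0.29, adjusted p = 1.3e-04), while Itga5, of the fibronectin receptor, fell 1.94-fold (-0.96 ± 0.19, adjusted p = 7.9e-04). Itga6, of a laminin receptor, fell 2.25-fold (-1.17 ± 0.24, adjusted p = 0.00135).

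Of 20 genes of TGF-beta signalling, a main inducer of matrix genes, 3 rose and 5 fell in KO at 29 °C. The shares of all genes were 24.7% and 20.0%. Tgfb1 and Ctgf, given next, are among the 5 that fell. Tgfb1 had 20.6, 14.9 and 23.3 CPM in KO at 29 °C, against 36.1, 32.4, 24.9 and 48.2 CPM in WT at 29 °C (-0.85 ± 0.20, adjusted p = 0.00347). Ctgf, a target of the pathway, had 2.40, 2.67 and 6.59 CPM in KO at 29 °C, against 14.7, 14.1, 14.1 and 11.7 CPM in WT at 29 °C (-1.82 ± 0.28, adjusted p = 1.1e-04).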

How the data were processed

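BAT RNA was read on a BGIseq500 in paired ends, per the labels' protocols. Per the submitters' processing notes, reads were mapped to mm10 with STAR 2.7.10a, expected counts per gene were estimated with RSEM 1.2.28, and DESeq2, given as 1.3.40, was run by the authors. The deposited table holds these expected counts, unnormalized, for 24030 symbols, 24 of which had been turned into dates. It covers the 15 libraries with 0 columns outside them, and 7.26% of its values had decimals.

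Values were rounded to whole numbers, genes were kept by edgeR's filterByExpr (minimum count 10, 15083 genes), and libraries were scaled by TMM. A quasi-likelihood model with 1 mean per group over all libraries (edgeR 4.0.16, limma 3.58.1, R 4.3.3) gave the 5 comparisons. It had 11 residual degrees of freedom, Benjamini-Hochberg adjustment over all genes and a threshold of 0.05. A prior count of 1 was used for log2 CPM values. CPM are counts scaled to the TMM-adjusted library total, and fold values are edgeR's log2 fold changes turned back into ratios. Totals of 23977448 to 38800967 counts make counting error small for all but genes under about 1 CPM.

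Genes described in full were a fixed list of key members, with the 4 largest called changes in each direction of each comparison among members of at least 1 CPM on average. Other genes are examples of their list, some of them chosen after their values were seen. The members and all lists were chosen with earlier results of these data known. Alternatives were RLE size factors, no low-count filter, DESeq2 1.42.0, a replicate block, a fit of only the libraries compared, each library left out, the 3 muscle-bearing libraries left out, and KO replicates 2 and 4 at RT left out. Same-numbered libraries correlated at -0.255 to 0.316, and the numbers were not treated as pairs. No replicates were duplicates. The model was tested on simulated data. Positions are from GENCODE M21 (GRCm38) and upstream sequences from RefSeq (GRCm38.p6). Results of some genes are not reported here.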

Additional observations from a re-analysis of the deposited data

Results flagged for a closer look

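A single library stood apart from the other 3 of its group in 2 of the 96 gene and group combinations with 4 libraries, where chance gives about 1 in 20. Lama4 had 102 CPM in replicate 1 of WT at 29 °C, against 130.4 to 134 CPM in the other 3. Timp1 had 1.09 CPM in replicate 3 of KO at RT, against 0.284 to 0.388 CPM in the other 3.

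The KO effect at 29 °C minus the KO effect at RT (log2, edgeR's interaction test with adjusted p under 0.05) differed from 0 for 27 genes. It was positive for the collagen chains Col1a1 (1.01), Col1a2 (0.84), Col3a1 (0.99), Col6a1 (0.53), Col6a2 (1.07) and Col12a1 (0.90). The laminin chains Lama2 (0.59) and Lamb3 (2.77) and the enzymes Loxl1 (1.45), Mmp2 (0.86), Mmp19 (1.24) and Adamts6 (1.38) were positive too. It was negative for the collagen chains Col5a3 (-0.80), Col11a2 (-1.46) and Col28a1 (-1.66), for Tnc (-1.59), and for the laminin chains Lama4 (-0.47), Lama5 (-1.13) and Lamb2 (-0.88). The inhibitors Timp3 (-0.56) and Timp4 (-1.29) were negative, as were Adamts15 (-2.06), Adamts16 (-3.42), Mmp9 (-1.88), Mmp15 (-0.86), Mmp17 (-1.0) and Mmp23 (-1.37). Some calls not given above were lost without the 3 muscle-bearing libraries. Their values were then 0.77 (Col1a2), 0.34 (Col6a1), 0.54 (Lama2), -0.71 (Col5a3), -4.51 (Adamts16), -0.88 (Mmp15) and -1.09 (Mmp23). Without KO replicates 2 and 4 at RT, Col1a2 (0.86, adjusted p = 0.054), Col5a3 (-0.48, adjusted p = 0.0911) and Col12a1 (0.65, adjusted p = 0.0706) lost theirs. Lama4 (-0.30, adjusted p = 0.235) and Adamts16 (-3.42, adjusted p = 0.104) did too. Of the 27 calls, 18 held with any 1 library left out and 8 under every alternative.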

How the results depend on the processing

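The most sensitive counts were those that use KO libraries. Without the 3 muscle-bearing libraries the matrix genes called were 22 for housing in KO, 16 for the interaction and 0 for KO against WT at RT, the medians were 0.34 for housing in KO and -0.19 for the interaction, and 31 other matrix genes were called for housing in KO. Without KO replicates 2 and 4 at RT the interaction was called for 17 matrix genes and 12 other matrix genes, KO against WT at RT for 0, and the median for housing in KO was 0.64, against 0.45 with no low-count filter. With a replicate block, matrix genes called were 36 for KO against WT at 29 °C, 0 at RT, 40 for housing in KO, 51 for housing in WT and 25 for the interaction. The fit of only the libraries compared called 0 at RT, and DESeq2 called 2 other matrix genes there. With 1 library left out, calls ranged over 0 to 1 at RT and 19 to 28 for the interaction, 17 to 30 for other matrix genes in the interaction, and medians over 0.40 to 0.55 for housing in KO and -0.23 to 0.01 for KO against WT at 29 °C; 0.01 came without WT replicate 3. Of 3378 gene results of the 31 described genes, 3287 kept their side of the threshold, 76 lost the call and 15 gained it. Called results changed direction in 0 cases. These results come from 155 gene comparisons, of which 70 were called with all libraries. Uncalled results could change direction, as Col4a1 did in KO against WT at 29 °C (0.03, and -0.21 without the muscle-bearing libraries). Calls that held under every alternative were 19 of 35 for KO against WT at 29 °C, 41 of 51 for housing in WT and 19 of 41 for housing in KO. The cause of these shifts was not tested beyond fewer libraries. KO at 29 °C has 3 libraries, 2 of them with muscle transcripts, and genes under about 1 CPM rest on few reads.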

Other observations

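Integrins and other matrix genes not described above also moved between genotypes at 29 °C. Itga4, of a receptor for fibronectin on leukocytes, averaged 10.7 CPM in KO at 29 °C and 4.61 CPM in WT at 29 °C (1.22 ± 0.17, adjusted p = 4.4e-05, edgeR). Egfl7, a secreted endothelial matrix protein, averaged 51.7 CPM in KO at 29 °C and 160.2 CPM in WT at 29 °C (-1.63 ± 0.15, adjusted p = 1.1e-06).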
